A study of Mus musculus with 4 samples.

Results

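The genes described here, 10 of lipid export and lipoprotein handling, were followed in peritoneal macrophages of the mouse, the phagocytes of its abdominal cavity. One group of cells received 0.5 mg/ml LUP for 24 h, and the vehicle group had complete medium alone for the same time. The 10 genes were picked by symbol from a table of 55414 genes and are Apoe, Apoc1, Apoc2, Abca1, Abcg1, Nr1h3, Mylip, Pltp, Lpl and Ch25h. Each matched a single row, among them Apoe (ENSMUSG00000002985), Abca1 (ENSMUSG00000015243) and Ch25h (ENSMUSG00000050370). In GENCODE M21, Apoe, Apoc1 and Apoc2 lie on chromosome 7, Nr1h3 and Pltp on chromosome 2, Abca1 on 4, Lpl on 8, Mylip on 13, Abcg1 on 17 and Ch25h on 19. The LUP group and the vehicle group held 2 RNA sequencing libraries each, and the labels do not spell out LUP. Neither the strain, age and sex of the mice nor the way the cells were drawn out and cultured is given in the sources used here. The labels do not say that libraries of a group came from separate mice or cultures, so p-values measure only the spread between these libraries, which may be technical.

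Macrophages take up lipoproteins and dying cells and must export the cholesterol they gain. Sterol derivatives called oxysterols switch on the liver X receptors (LXR), nuclear receptors that pair with retinoid X receptors on DNA and raise the genes of sterol efflux. In mouse macrophages these targets include the transporters Abca1 and Abcg1, the apolipoprotein genes of the Apoe cluster, the lipid transfer protein Pltp, the lipase Lpl and Mylip, whose product marks lipoprotein receptors for degradation. Nr1h3 encodes LXR alpha itself, and Ch25h makes an oxysterol that can act on LXR and holds down cholesterol synthesis.

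Depth was 22460913 to 23617618 counts in LUP libraries and 19949818 to 23172691 counts in vehicle libraries. Genes were tested with edgeR's quasi-likelihood test on rounded counts, and a gene was called at a Benjamini-Hochberg adjusted p under 0.05 over the 13355 genes tested. Of these, 27.1% were called higher and 23.7% lower, the background for each count of called markers below. Levels are given in TPM, a share of all transcripts that is corrected for gene length, so that levels of different genes can be compared. Among markers of other cells, the summed level of the mesothelial and fibroblast list was 104 and 136 TPM in the LUP libraries and 104 and 118 TPM in the vehicle libraries, with 2 of 10 markers called higher and 4 lower. Collagen genes made up most of that sum. The mesothelial markers Krt19, Upk3b and Lrrn4 fell 7.49-fold, 4.62-fold and 3.80-fold at levels under 4 TPM. Wt1 and Msln, mesothelial markers too, were not called (log2 change -0.43 and -0.54, adjusted p = 0.225 and 0.453 by edgeR's quasi-likelihood test). Col1a1 and Dcn were called higher, 1.37-fold and 1.21-fold, and Pdgfra lower, 1.51-fold. The markers of this list were named after their values were seen. The neutrophil list summed to 270 and 306 TPM with LUP and 45.4 and 47.4 TPM with vehicle. Mmp8, at a mean of 197 TPM with LUP and 15.2 with vehicle, and S100a8, at 88.3 and 30.8 TPM, made up most of it. Of its 10 markers, 3 were called higher and 1 lower, and S100a9, Ly6g and Mpo were listed at 0 in all 4 libraries. The lists of B cells, of T and NK cells, of dendritic cells, of mast cells and eosinophils and of red blood cells summed to at most 5.43 TPM with LUP and 10.5 TPM with vehicle. The part of other cells in the changes below was not tested. Of the macrophage list of 10 markers all were tested, and 6 were called higher and 2 lower. It summed to 21909 and 22097 TPM with LUP and 27364 and 27741 TPM with vehicle. Lyz2 made up most of that sum, at a mean of 15825 TPM with LUP and 22234 TPM with vehicle, a 1.31-fold fall. Adgre1, of the same list, rose 4.86-fold. The list of 8 large peritoneal macrophage markers summed to 150 and 169 TPM with LUP and 224 and 244 TPM with vehicle. Of its 6 tested markers 2 were called higher and 3 lower. Fn1 made up most of the sum, at a mean of 146 TPM with LUP and 216 TPM with vehicle, a 1.39-fold fall. Gata6 was called lower, 2.00-fold, and Timd4 higher, both at levels under 4 TPM. Mmp8, S100a8, Lyz2, Adgre1, Fn1, Gata6 and Timd4 were also named after their values were seen.

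The 10 genes did not move as a block. With LUP, the sterol exporter Abca1 rose 5.38-fold and the oxysterol enzyme Ch25h 4.26-fold, Lpl rose 1.34-fold and Mylip 1.20-fold, while Apoe fell 2.64-fold, Pltp 1.35-fold and the second exporter Abcg1 1.33-fold. Apoc2 and the receptor gene Nr1h3 did not pass the test, and Apoc1 was below the filter on low counts. Thus 4 of the 9 tested members were called higher and 3 lower. Of all tested genes 27.1% were called higher and 23.7% lower, 50.8% in either direction. The TPM values of the groups did not overlap for any of the 9, with LUP higher for 5 and lower for 4. Among all tested genes 69.9% did not overlap, 27.6% with LUP higher and 42.3% with LUP lower. A change of at least 2-fold was called for 3 of the 9, 2 higher and 1 lower, and for 11.3% of all tested genes, 6.37% higher and 4.95% lower. The median log2 change of the 9 was 0.20, beside -0.0011 for all tested genes.

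**Figure D1:**
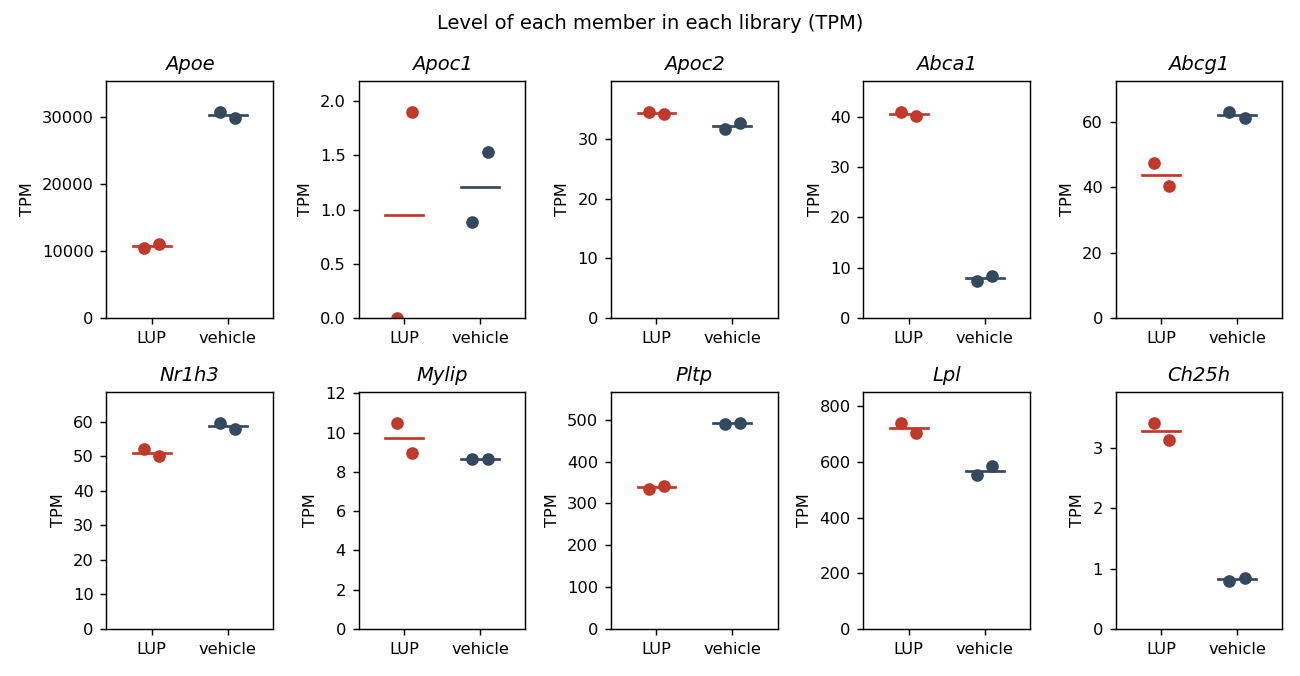
Level of each of the 10 genes in TPM (vertical axis, from 0, own scale per gene) in the 2 LUP and 2 vehicle libraries; points are libraries and bars group means. Apoe lies at a mean of 10813 with LUP and 30376 with vehicle, Abca1 at a mean of 40.5 with LUP and 7.90 with vehicle, and for Apoc1 the groups overlap.

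Apoe, the lipid carrier that macrophages secrete, had 10562 and 11063 TPM in the LUP libraries, against 30811 and 29941 TPM in the vehicle libraries. Both LUP libraries were thus low, and the gap between groups was far wider than that within either. The log2 change was -1.40 (SE 0.039, edgeR quasi-likelihood adjusted p = 4.35e-16), with a 95% interval of -1.48 to -1.32. Apoe ranked 6th of all genes by mean TPM with LUP and 3rd with vehicle. It took 1.06% and 1.11% of all TPM in the LUP libraries and 3.08% and 2.99% in the vehicle libraries. The size of its change was larger than that of 92.4% of tested genes. In bulk RNA, fewer cells that express a gene and less RNA per cell cannot be told apart.

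Apoc2, the small apolipoprotein that activates lipoprotein lipase, had 34.5 and 34.1 TPM in LUP libraries and 31.6 and 32.7 TPM in vehicle libraries. The log2 change was 0.20 (SE 0.13, adjusted p = 0.209 by the same test) with a 95% interval of -0.071 to 0.48, so that a rise of up to 1.39-fold is within it. Apoc2 counts were not whole, and the gene overlaps Gm44805, a gene model on the same strand that spans Apoc4 and Apoc2. Gm44805 had 73.1 and 64.0 counts in LUP libraries and 83.7 and 92.0 in vehicle libraries. Added together, the 2 models had 284 and 263 counts in LUP libraries and 239 and 278 in vehicle libraries. In TPM the sum was 39.6 and 38.7 with LUP and 38.8 and 39.5 with vehicle. The summed values overlap between the groups.

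Apoc1, an apolipoprotein that restrains lipid transfer and receptor uptake, had 0 and 5 counts in the LUP libraries and 2 and 4 in the vehicle libraries. A count of 0 allows up to 3 counts, so no difference was detectable at this depth and no fold is given. Next to the 10813 TPM of Apoe, Apoc2 averaged 34.3 TPM and Apoc1 0.95 TPM with LUP, and with vehicle they averaged 32.2 and 1.21 TPM beside 30376 TPM of Apoe.

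The 4 apolipoprotein genes lie side by side, in the order Apoe, Apoc1, Apoc4 and Apoc2, and share the minus strand. This is from the GENCODE M21 gene models, used here only for the chromosome, order, strand and overlap of genes. Apoc4 had 2.06 and 2.02 counts in LUP libraries and 1 and 4.15 in vehicle libraries, below the filter. Of the 5 protein-coding genes on either side, 8 were tested, and 5 of those rose while none was called lower, beside 27.1% and 23.7% of all tested genes. Bcl3, an inhibitor-like partner of NF-kB subunits, had 38.9 ± 0.53 TPM with LUP and 13.7 ± 0.54 with vehicle (SD, n = 2 each), a 3.04-fold rise. Relb, an NF-kB subunit, rose 2.46-fold, the adhesion molecule gene Bcam 2.12-fold, Tomm40, a channel of mitochondrial protein import that lies next to Apoe, 1.55-fold, and Clptm1 1.36-fold. The Clptm1 call was lost with limma on log2(TPM + 1) and log2(TPM + 0.1) (adjusted p = 0.0542 and 0.0562). Gemin7, Nectin2 and Clasrp had log2 changes of 0.18, 0.34 and -0.098 and were not called (adjusted p = 0.0655, 0.0583 and 0.233 by edgeR's quasi-likelihood test). Gemin7 and Nectin2 were called higher under 3 of 15 alternatives each (adjusted p from 0.0178 and from 0.0146), and Clasrp was called lower with upper-quartile scaling and after quantile normalization (adjusted p = 0.0116 and 0.0225).

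**Figure D2:**
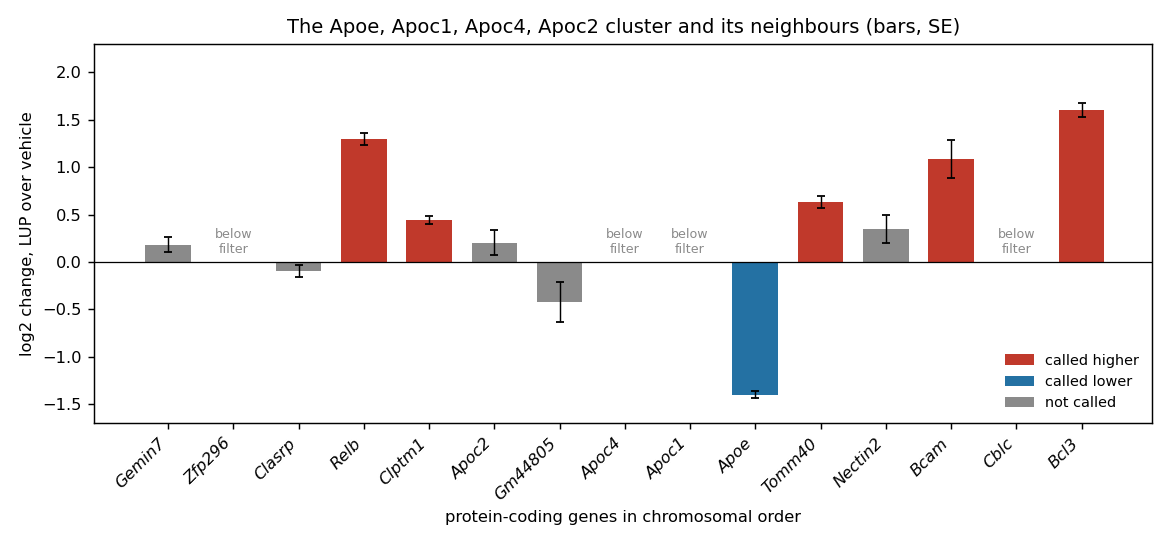
Fitted log2 change, LUP over vehicle (vertical axis), of the apolipoprotein cluster and 5 protein-coding genes on either side in chromosomal order (horizontal axis); bars are coloured by call and error bars are the SE. Apoe, at -1.40, is the only called fall in the row, and Relb, Clptm1, Tomm40, Bcam and Bcl3 are called higher.

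Abca1, the transporter that loads cholesterol and phospholipid onto lipid-poor apolipoproteins, had 40.9 and 40.0 TPM with LUP, against 7.39 and 8.40 TPM with vehicle. Both LUP libraries were about equally high, far above either vehicle library. The log2 change was 2.43 (SE 0.049, adjusted p = 3.3e-18 by the same test) with a 95% interval of 2.32 to 2.53, larger in size than that of 97.0% of tested genes. Its counts were 6772 and 6188 in LUP libraries and 1009 and 1302 in vehicle libraries.

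Abcg1, the transporter that passes cholesterol to mature high-density lipoprotein, went the other way. It had 47.3 and 40.4 TPM with LUP, against 62.9 and 61.2 TPM with vehicle. The log2 change was -0.41 (SE 0.040, adjusted p = 4.91e-08 by the same test), with a 95% interval of -0.50 to -0.33 that does not reach that of Abca1. The TPM of Abca1 was 0.866 and 0.991 of the TPM of Abcg1 in the LUP libraries and 0.117 and 0.137 of it in the vehicle libraries. The levels of the 2 exporters overlapped with LUP, whereas with vehicle Abcg1 was above Abca1 in both libraries.

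**Figure D3:**
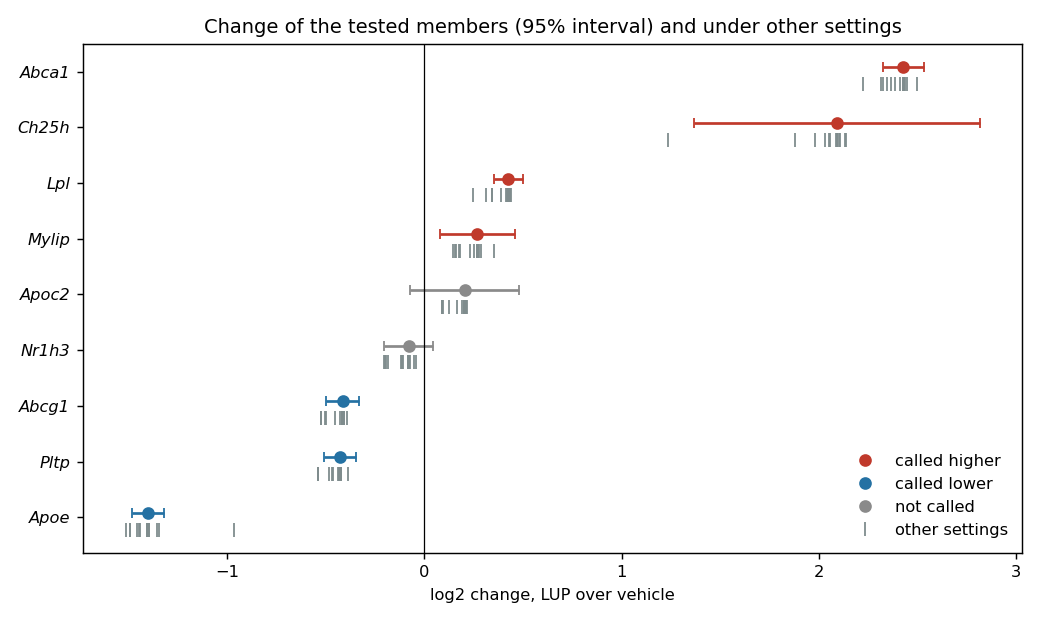
Fitted log2 change, LUP over vehicle (horizontal axis), of the 9 tested genes with 95% intervals, coloured by call; grey ticks under each are the values under the other scalings, tests, filters and left-out libraries. Abca1 and Ch25h stand above 1, Apoe below 0 by 1.40, and the intervals of Apoc2 and Nr1h3 include 0.

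RefSeq promoter sequences (GRCm38.p6, from 250 bases before to 50 bases after a start) were matched for 7 of the 10 genes, with 10 starts in all. Apoc1, Abcg1 and Lpl had no promoter in the set used, so theirs were not searched. They were searched on both strands for a relaxed LXR direct repeat (GGTNA, any 5 bases, GGTNA), an interferon response core (GAAA, any 2 bases, GAAA), an NF-kB form (GGG, any 2 bases, TTTCC) and an E-box (CACGTG). The matches found do not overlap one another. Among the 7 genes searched, the direct repeat was found in the Abca1 promoter only, and it occurs in 0.718% of the 32851 promoters of the table. The match lies at positions -67 to -53 relative to the start, on the strand opposite to the gene, where it reads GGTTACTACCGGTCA. An E-box lies at positions -147 to -142 of the same promoter and is held by 7.15% of promoters. The interferon core and the NF-kB form, in 3.44% and 1.63% of promoters, matched none of the 10 starts. A match is a description of letters and not a binding site, and no match says only that these letters are absent from this window. The promoters of the 3 genes that changed at least 2-fold are shown 5′ to 3′ on the strand of the gene, with matches in capitals. Abca1 is from chr4:53159846-53160145, Ch25h from chr19:34475099-34475398 and Apoe, at the outermost of its 3 starts, from chr7:19699139-19699438, all on the minus strand.
Abca1: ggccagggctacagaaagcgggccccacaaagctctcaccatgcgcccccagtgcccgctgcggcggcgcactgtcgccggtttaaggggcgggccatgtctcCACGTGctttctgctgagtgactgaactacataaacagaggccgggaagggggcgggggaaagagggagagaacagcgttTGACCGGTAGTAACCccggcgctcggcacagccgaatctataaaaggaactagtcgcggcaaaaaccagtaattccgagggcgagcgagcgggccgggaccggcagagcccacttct
Ch25h: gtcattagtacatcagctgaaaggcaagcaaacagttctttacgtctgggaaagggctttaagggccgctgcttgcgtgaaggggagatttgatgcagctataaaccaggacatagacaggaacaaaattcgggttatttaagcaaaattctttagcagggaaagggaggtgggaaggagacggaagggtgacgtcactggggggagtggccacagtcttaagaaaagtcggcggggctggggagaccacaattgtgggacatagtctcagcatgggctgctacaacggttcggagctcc
Apoe: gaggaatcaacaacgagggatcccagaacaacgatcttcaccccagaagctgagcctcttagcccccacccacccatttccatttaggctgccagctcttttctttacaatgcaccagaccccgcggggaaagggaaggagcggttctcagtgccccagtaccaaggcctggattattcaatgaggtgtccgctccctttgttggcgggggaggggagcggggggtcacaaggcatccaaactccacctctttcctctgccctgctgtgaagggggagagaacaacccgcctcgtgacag

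Pltp, the phospholipid transfer protein that remodels high-density lipoprotein, had 334 and 342 TPM with LUP, against 489.9 and 492.8 TPM with vehicle. Its log2 change was -0.43 (SE 0.038, adjusted p = 1.69e-08 by the same test). The libraries of each group lay close together and the groups were well apart. Pltp overlaps Ctsa, a lysosomal protease gene on the opposite strand, and whether the libraries kept the strand is not stated, so reads in the overlap cannot be told apart. Ctsa had 2413 ± 59.5 TPM in LUP libraries and 3926 ± 4.57 TPM with vehicle (SD, n = 2 each) and also fell (log2 change -0.56), and its part in the Pltp value was not tested. Ctsa and Gm44805 are named for their overlap with members.

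Lpl, the lipase that frees fatty acids from triglyceride-rich lipoproteins, had 741 and 703 TPM with LUP and 551 and 586 TPM with vehicle. It rose by a log2 change of 0.43 (SE 0.034, adjusted p = 3.81e-09 by the same test), so that both LUP libraries were above both vehicle libraries. It was the second most abundant of the 10 genes in both groups.

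Nr1h3, which encodes LXR alpha, had 52.1 and 50.2 TPM with LUP and 59.8 and 58.1 TPM with vehicle. Its TPM values did not overlap, but the fitted log2 change from counts was -0.080 (SE 0.058, adjusted p = 0.274 by the same test), with a 95% interval of -0.20 to 0.043. A fall was called with upper-quartile scaling (log2 change -0.19, adjusted p = 0.00945) and after quantile normalization (-0.18, adjusted p = 0.0163). It was also called by limma on log2(TPM + 1) and log2(TPM + 0.1) (-0.20 in both, adjusted p = 0.0383 and 0.0398). The call of Nr1h3 thus depends on the scaling and the test.

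Mylip, the ubiquitin ligase that removes lipoprotein receptors from the cell surface, had 10.5 and 8.94 TPM with LUP and 8.65 and 8.67 TPM with vehicle. The LUP libraries were further apart from each other than LUP replicate 2 was from either vehicle library. Its log2 change of 0.27 (SE 0.090, adjusted p = 0.0182 by the same test) passed the threshold. The call was lost without LUP replicate 1 (adjusted p = 0.162), without vehicle replicate 2 (0.0891), with DESeq2 (0.218) and under 4 other settings, in a range of 0.00183 to 0.354 over all alternatives.

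Ch25h, the enzyme that turns cholesterol into a hydroxylated oxysterol, was low throughout. It had 3.42 and 3.14 TPM with LUP, against 0.79 and 0.85 TPM with vehicle. These rest on 63.9 and 57 counts in the LUP libraries and 12 and 15 in the vehicle libraries. The log2 change was 2.09 (SE 0.34, adjusted p = 4.58e-05 by the same test) and its 95% interval, 1.37 to 2.81, was the widest of the 9. On log2(TPM + 1), where the pseudocount is as large as the vehicle level, it was 1.23 by limma.

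**Figure D4:**
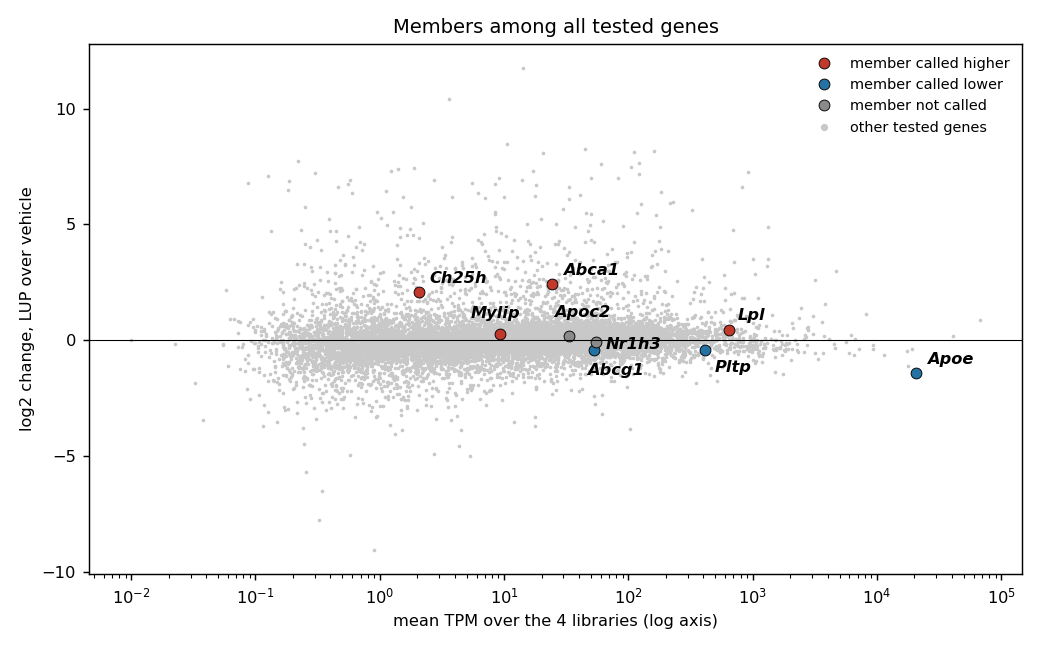
Fitted log2 change, LUP over vehicle (vertical axis), against mean TPM over the 4 libraries (log axis) for all tested genes in grey, with the 9 tested members named and coloured by call. Apoe is among the most abundant genes and has a log2 change of -1.40, while Abca1 and Ch25h lie above 2.

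By level, the order with LUP was Apoe, Lpl, Pltp, Nr1h3, Abcg1, Abca1, Apoc2, Mylip, Ch25h and Apoc1. With vehicle it was Apoe, Lpl, Pltp, Abcg1, Nr1h3, Apoc2, Mylip, Abca1, Apoc1 and Ch25h. Neighbours in these orders did not overlap between libraries of the group, other than Abcg1 and Abca1 with LUP. Abca1 thus stood 6th with LUP and 8th with vehicle. In the authors' deposited table, whose log2 fold change runs vehicle over LUP, every one of the 9 tested genes had the opposite sign to the values above, which is the same direction of change. Its adjusted p was 0.221 for Mylip, 0.638 for Nr1h3 and 0.588 for Apoc2 and below 0.05 for the other 6 of the 9.

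Other genes of the same processes were taken from 8 lists holding 127 genes besides the 10, some of them in more than 1 list. Of these 89 were tested, with 26 (29.2%) called higher and 33 (37.1%) lower, beside 27.1% and 23.7% of all tested genes. Their median log2 change was -0.056. Genes named in the rest of this account without being among the 3 most abundant called genes of a list were chosen after their values were seen. These are Nr1h2, Med1, Tbl1xr1, Ncoa2, Abca7, Arg2, Arl4c, Scd2, Lpcat3, Angptl4, Cd5l, Nceh1, Lrp8, Msr1, Vldlr, Clu, Gpihbp1, Sdc4, Lipe, Lmf1, Cyp27a1 and Gpr183.

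**Figure D5:**
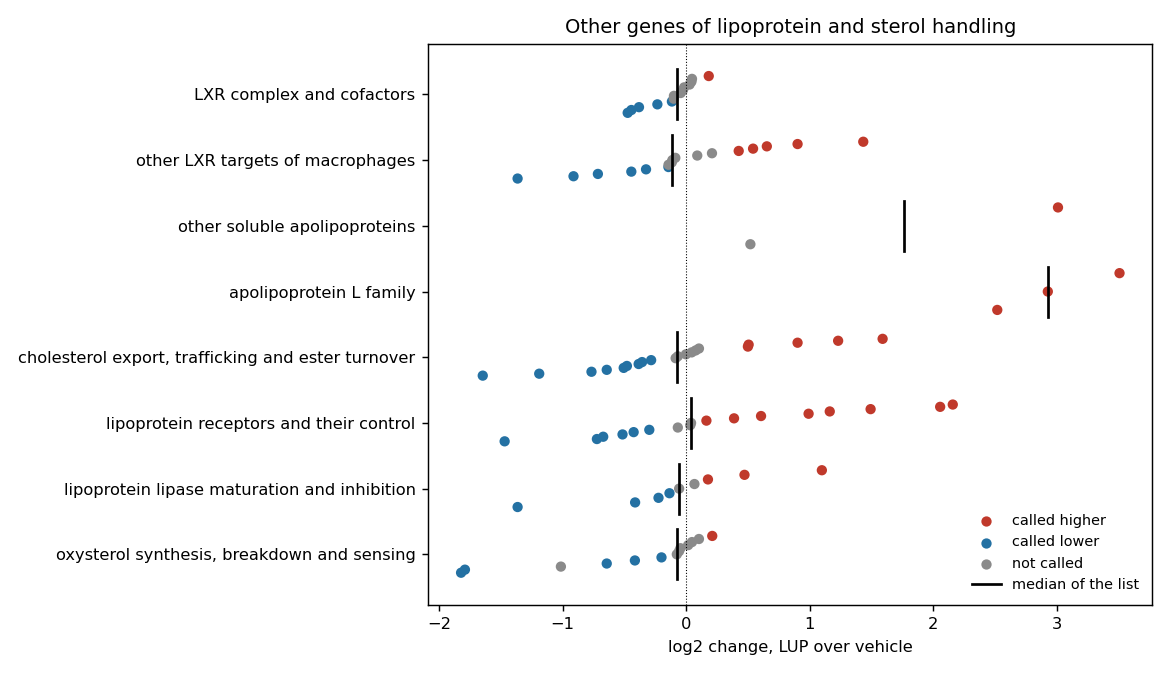
Fitted log2 change, LUP over vehicle (horizontal axis), of the tested genes of each list (rows), coloured by call, with the list median as a black line. In 6 of the 8 lists the median lies between -0.11 and 0.040, with called genes on both sides, and the 3 tested apolipoprotein L genes all lie above 2.

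Among the receptor's partners and cofactors, 1 of 14 tested genes rose and 5 fell, with a median log2 change of -0.071. The rise, 1.14-fold for Med1 (adjusted p = 0.0235 by edgeR's quasi-likelihood test), lost its call under 8 of 15 alternatives. Among the falls, Tbl1xr1 fell 1.30-fold and Ncoa2 1.17-fold, and the Ncoa2 call was lost under 3 of 15 alternatives. Rxrb, a retinoid X receptor, had 22.9 ± 0.99 TPM with LUP and 35.4 ± 1.32 with vehicle (SD, n = 2 each), a 1.39-fold fall. The coactivator gene Ncoa3 fell 1.36-fold, a call lost with limma on log2(TPM + 1) and log2(TPM + 0.1) (adjusted p = 0.0627 and 0.0639). Rxra fell 1.08-fold (adjusted p = 0.0228 by the same test), a call lost with DESeq2, without a filter, with a replicate block and without LUP replicate 1 or either vehicle replicate (adjusted p up to 0.14). Nr1h2, the gene of LXR beta, was not called at 118 ± 1.01 TPM with LUP and 120.1 ± 2.4 with vehicle (log2 change 0.048, adjusted p = 0.456 by the same test), and its sign turned under other scalings.

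Genes listed as other LXR targets of macrophages also split, with 5 of 17 tested genes higher and 6 lower and a median of -0.11. Whether each of them answers to LXR in these cells was not tested. Smpdl3a, a relative of acid sphingomyelinase, was 290.2 ± 4.35 TPM with LUP and 509 ± 8.1 with vehicle, a 1.64-fold fall. Tgm2, a transglutaminase, fell 1.25-fold and Mertk, a receptor for dying cells, 1.36-fold. Cd5l, a secreted macrophage protein gene, fell 1.88-fold. The other called rises were Arg2 (2.70-fold), Arl4c (1.57-fold), Scd2 (1.46-fold) and Lpcat3 (1.34-fold), beside Abca7. Abca7, a relative of Abca1 that is also in the cholesterol export list, rose 1.87-fold. It had 21.2 ± 0.523 TPM with LUP, against 12.2 ± 0.552 with vehicle.

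Of 16 other soluble apolipoproteins only Saa3 and Clu passed the filter. Saa3, an acute-phase apolipoprotein, rose 8.06-fold (7988 and 8412 TPM with LUP, 1085 and 1112 TPM with vehicle). Clu was not called (log2 change 0.52, adjusted p = 0.0847 by the same test). All 3 tested members of the apolipoprotein L family rose, at low levels. Apol7c rose 5.73-fold to 1.44 ± 0.141 TPM with LUP, against 0.27 ± 0.0283 with vehicle. The Apol9a call was lost with limma on log2(TPM + 1) and log2(TPM + 0.1) (adjusted p = 0.0945 and 0.114), and its log2 change ran from 0.94 to 4.01 over the alternatives. Apol9a and Apol9b are near-identical copies whose split is uncertain, and together they had 95 and 69 counts in LUP libraries and 10 and 6 in vehicle libraries.

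Genes of cholesterol export, trafficking and ester turnover rose in 5 of 20 tested cases and fell in 9 (median -0.076). Soat1, which stores cholesterol as its ester, was 276 ± 14.4 TPM with LUP and 407 ± 24.7 with vehicle, a 1.56-fold fall. Lipa, the lysosomal ester hydrolase, fell 1.39-fold and Nceh1, a neutral ester hydrolase, 2.28-fold. Npc2, which moves cholesterol out of the lysosome, rose 1.42-fold.

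Lipoprotein receptors and their regulators rose in 8 of 17 tested cases and fell in 6 (median 0.040). Trem2, a lipid-sensing receptor that binds Apoe, was 885 ± 92.2 TPM with LUP and 2607 ± 75.0 with vehicle, a 2.77-fold fall. Lrp1, a large Apoe receptor, fell 1.59-fold and Cd36 1.34-fold. Msr1, a scavenger receptor, rose 4.16-fold to 227 ± 26.8 TPM with LUP, against 52.2 ± 11.7 with vehicle. Among receptors that the Mylip product targets, Lrp8 rose 2.82-fold, and Vldlr, at 0.31 ± 0.113 TPM with LUP and 0.23 ± 0.0283 with vehicle, was not called (log2 change 0.034, adjusted p = 0.959 by the same test).

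The list for lipoprotein lipase maturation and inhibition also holds proteoglycans and other lipases. In it 3 of 9 tested genes rose and 4 fell (median -0.056). Angptl4, an inhibitor of the lipase, was 2.44 ± 0.431 TPM with LUP and 6.38 ± 0.0919 with vehicle, a 2.57-fold fall. The proteoglycan Sdc1 fell 1.33-fold, the protease Furin 1.17-fold and Sel1l, which helps the lipase leave the endoplasmic reticulum, 1.10-fold. The Sel1l call was lost without vehicle replicate 2 (adjusted p = 0.12) and with limma on TPM at either pseudocount (0.0509 and 0.0523). Sdc4, another proteoglycan, rose 2.14-fold to 28.2 ± 1.67 TPM with LUP, against 14.1 ± 1.73 with vehicle. Lipe, a hormone-sensitive lipase, rose 1.39-fold, a call lost with limma on TPM at either pseudocount (adjusted p = 0.0996 and 0.0963). The third called rise, 1.13-fold for the lipase maturation factor Lmf1 (adjusted p = 0.0498 by the same test), was lost under 13 of 15 alternatives (adjusted p up to 0.564). Gpihbp1, which carries the lipase on capillaries, was listed at 0 in all libraries.

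Beside Ch25h, genes of oxysterol synthesis, breakdown and sensing rose in 1 of 13 tested cases and fell in 5 (median -0.075). Cyp27a1, which makes another oxysterol, was 6.20 ± 0.00707 TPM with LUP and 22.6 ± 0.24 with vehicle, a 3.53-fold fall, so that the 2 oxysterol enzymes moved in opposite directions. Gpr183, a receptor for oxysterols derived from the Ch25h product, fell 3.46-fold at 0.48 ± 0.0283 TPM with LUP and 1.80 ± 0.311 with vehicle. Insig1, which holds the sterol sensor in the endoplasmic reticulum, fell 1.33-fold.

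Among the cell types that make these proteins in quantity elsewhere, Adipoq, Plin1, Lep and Cidec, which define fat cells, were listed at 0 in all 4 libraries, out of a list of 7. Of the others Lipe is given above, and Cfd and Pnpla3 had 1 count each over all libraries. In a list of 8 liver genes Ttr, Apoa2, Serpina1a, Fgb and Apoh were listed at 0. Alb had 4 counts, all in LUP replicate 2, and Apoa1 had 6, all in LUP replicate 1. Of the other soluble apolipoproteins, Apoa4, Apob and Apoc3 had 27, 9 and 2 counts, also in LUP replicate 1 only. Trf, the transferrin gene in the liver list, had 71.5 ± 1.82 TPM with LUP and 182.9 ± 3.95 TPM with vehicle (SD, n = 2 each), a 2.07-fold fall. Trf, Alb, Apoa1, Apoa4, Apob, Apoc3, Cfd and Pnpla3 were also named after their values were seen.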

How the data were processed

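RNA of 4 libraries, 2 per group, was sequenced. The authors deposited 1 table of Ensembl genes with expected counts, TPM, a log2 fold change and adjusted p-values. The tools listed are RSEM, StringTie, HISAT2 and fastp, per the submitters' processing notes, with no role or version. Not given in the sources used here are genome build, annotation, strandedness and the authors' test. The expected counts, estimated by the authors, are not scaled between libraries, and the TPM values deposited by the authors are per length. The log2 fold change of the authors' deposited table runs vehicle over LUP, and the p-value used from it is the adjusted one. The length column deposited by the authors was not used.

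Expected counts were rounded and fitted with edgeR 4.0.16 (R 4.3.3; TMM, filterByExpr, treatment as the only term) over all 55414 genes, of which 13355 passed the filter. The SE is the log2 change divided by the root of the F statistic. Alternatives used DESeq2 1.42.0, limma 3.58.1, other scalings and filters, a replicate block and leaving out each library. Chi-square per degree of freedom between the libraries was 3.50 in the LUP group and 2.67 in the vehicle group; each library was counted as 1 replicate, as labelled. Members and gene lists were chosen with earlier results of these data known. All 10 members are named, as are up to 3 called genes of highest mean TPM from each list and the neighbours of Apoe, apart from some genes that are not reported here. Promoters came from RefSeq. GENCODE M21 shared 52081 of the gene IDs. A floor of 3 counts covers counting error only.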

Additional observations from a re-analysis of the deposited data

How the results depend on the processing

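The direction of all 9 tested members held under all 15 alternatives run (14 for Ch25h, which the filter of at least 5 TPM removed). The calls of Apoe, Abca1, Abcg1, Pltp, Lpl and Ch25h held too; those of Mylip and Nr1h3 changed as given above. The log2 change of Apoe ran from -1.51 to -0.96, that of Abca1 from 2.22 to 2.50 and that of Ch25h from 1.23 to 2.14. Of all calls 53.4% were higher in the fit reported, against 37.8% with upper-quartile scaling, which moved the median of all genes to -0.114 on the log2 scale, 41.4% after quantile normalization and 43.5% with limma on log2(TPM + 1) or on log2(TPM + 0.1). DESeq2 called 2063 genes lower, against 3164 in the fit reported, and limma called 1935 and 1920 genes higher with the 2 pseudocounts, against 3621; the cause was not tested. Leaving out 1 library gave 3162 to 3470 genes higher and 2692 to 2974 lower. The Nr1h2 change was -0.065 with upper-quartile scaling, -0.083 after quantile normalization, -0.030 and -0.031 with limma on TPM with the 2 pseudocounts, and -0.029 to 0.124 when 1 library was left out. Of the 59 called genes of the lists, 45 kept direction and call throughout. No label says what the replicate numbers mark, and deviations of same-numbered libraries correlated at -0.116. With the replicate number as a block 3533 genes were higher and 3073 lower, with 4 and 3 members. Crossing the numbers, an alternative chosen after seeing the data, gave 3835 and 3405. The 12 and 15 vehicle counts of Ch25h limit its precision, and Apoc1 could not be tested at this depth.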
